A study of Homo sapiens with 4 samples.

Results

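The transcripts described here are those of 10 genes of the unfolded protein response of the endoplasmic reticulum (ER): the sensors ERN1, ATF6 and EIF2AK3, the transcription factor XBP1, the chaperones HSPA5, HSP90B1 and DNAJB9, and the degradation factors SEL1L, HERPUD1 and EDEM1. They were taken by gene name from the site lists of 4 libraries, and make up 10 of the 15209 genes named there and 149 of the 218950 listed positions. The libraries came from HEK293T, a transformed human embryonic kidney cell line: 2 from cells given ascorbic acid (vitamin C) for 36 h, seeded 24 h earlier, and 2 from control cells. Per the labels, medium was replaced at 6 h intervals during the treatment. No dose is stated in the labels, which also do not say whether the libraries of a group came from separate cultures, so p-values measure the spread between these libraries, which may be technical. The study set ascorbic acid against control for N6-methyladenosine (m6A), measured with GLORI, a chemistry that deaminates unmethylated adenosine, so that it is sequenced as G, and leaves m6A to be sequenced as A. A site's m6A level is the percentage of A among its A plus G reads.

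m6A is the commonest internal modification of mammalian messenger RNA. It is written by the METTL3-METTL14 methyltransferase and removed by FTO and ALKBH5, which belong to the iron- and 2-oxoglutarate-dependent dioxygenases, a class of enzymes for which ascorbate is a known cofactor. The unfolded protein response is the signalling that adjusts the ER to its load of unfolded protein. ERN1 (IRE1α) is a membrane kinase and RNase that splices XBP1 mRNA, EIF2AK3 (PERK) phosphorylates the translation factor eIF2α, and ATF6 is cut in the Golgi to release a transcription factor. Their outputs include chaperones and the machinery of ER-associated degradation (ERAD), which returns misfolded proteins to the cytosol for the proteasome.

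XBP1 and ATF6 act on promoters through the ER stress response element, and that element is shown here because it ties several of these genes into one programme. The letters CCAAT, 9 bases of any kind and CCACG, searched on both strands in RefSeq promoter windows of GRCh38.p14 (250 bases before to 50 after the annotated start), occurred in 27 of 35116 promoters (0.0769%), among them those of HSPA5, HSP90B1 and XBP1. The related letters ATTGG, any base and CCACG occurred in 19 promoters (0.0541%), among them that of HERPUD1. A match is a description of the window and not a measured binding site. Capitals mark the fixed letters of each motif.
HSPA5, chr9:125241391-125241409, minus strand: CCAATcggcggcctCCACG
HSP90B1, chr12:103930216-103930234, plus strand: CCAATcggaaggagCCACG
HSP90B1, chr12:103930321-103930339, minus strand: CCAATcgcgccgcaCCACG
XBP1, chr22:28800603-28800621, minus strand: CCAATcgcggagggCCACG
HERPUD1, chr16:56932025-56932035, plus strand: ATTGGgCCACG

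The 10 genes had 98 and 98 listed sites in the ascorbic acid libraries, against 94 and 97 in the control libraries. Listed sites of all genes held 25146378 and 26816350 A plus G reads with ascorbic acid, against 22592887 and 28562744 in control. Of the 149 positions, 60 were listed in all 4 libraries and 53 of these reached the minimum for a test here, which was 20 A plus G reads per library; they had 20 to 1969 reads per library. The lists hold no site under a level of 10%, so a position absent from a library may be under that level there or too shallow to call. Some highly methylated, deeply read positions were also absent from a library, for no recorded reason. The median share of adenosine left unconverted, given by the authors per gene, was 2.72% and 2.87% with ascorbic acid, against 2.51% and 3.88% in control. In each of the 10 genes it was highest in control replicate 2 (in XBP1, 4.65% and 4.60% with ascorbic acid, against 4.41% and 5.86% in control), and adenosine left unconverted is read as m6A. Of the markers chosen for HEK293T, EYA1, LIN28B, NEFL and NEFM had a listed site, and of 11 markers of other cell types 2 did (COL1A1 and LRP2), though a gene needs both RNA and m6A to be listed.

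The m6A level of these transcripts was lower with ascorbic acid, most in the chaperone HSP90B1 and the sensor EIF2AK3. When the reads of all tested sites of a gene were added up, HSP90B1, EIF2AK3, HERPUD1, SEL1L and XBP1 fell, none of the 10 genes rose and 5 did not pass (edgeR quasi-likelihood test, Benjamini-Hochberg adjusted p under 0.05, two-sided). Over all 10782 genes tested the share that fell was 56.7%, and 0.297% rose, so 5 of 10 is near the background. All 10 had a lower mean with ascorbic acid, against 92.2% of all genes, and the median log2 odds ratio was -0.25 over the 10 genes, against -0.39 over all genes. Gene levels did not overlap between the groups, with both ascorbic acid libraries below both control libraries, in EDEM1, EIF2AK3, HERPUD1, HSP90B1, HSPA5, SEL1L and XBP1; the share among all genes was 76.7%. In none did both lie above control, against 1.75% of all genes. With DESeq2, 2 of the 10 genes fell (HERPUD1 and HSP90B1), and 3927 of all 10782 genes did, against 6114 with edgeR. Without either ascorbic acid replicate, or without control replicate 2, fewer of the 10 genes and fewer of all genes fell.

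The chaperones HSPA5 and HSP90B1 had the lowest gene levels, and XBP1 the highest, in both groups. In control, HSPA5 (mean 19.7%) and HSP90B1 (20.7%) stood lowest, followed by DNAJB9 (28.1%), ATF6 (40.4%), HERPUD1 (40.8%), SEL1L (44.5%), EIF2AK3 (46.9%), EDEM1 (51.0%), ERN1 (58.9%) and XBP1 (61.0%). From ATF6 upwards, the control values of ATF6 and HERPUD1, of SEL1L and EIF2AK3, of EIF2AK3 and EDEM1, of EDEM1 and ERN1, and of ERN1 and XBP1 overlapped, so these neighbours did not differ beyond their spread. With ascorbic acid, HSP90B1 (12.2%) was lowest and XBP1 (56.9%) highest. A gene's level rests on which of its sites were listed, not on all of its adenosines.

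**Figure D1:**
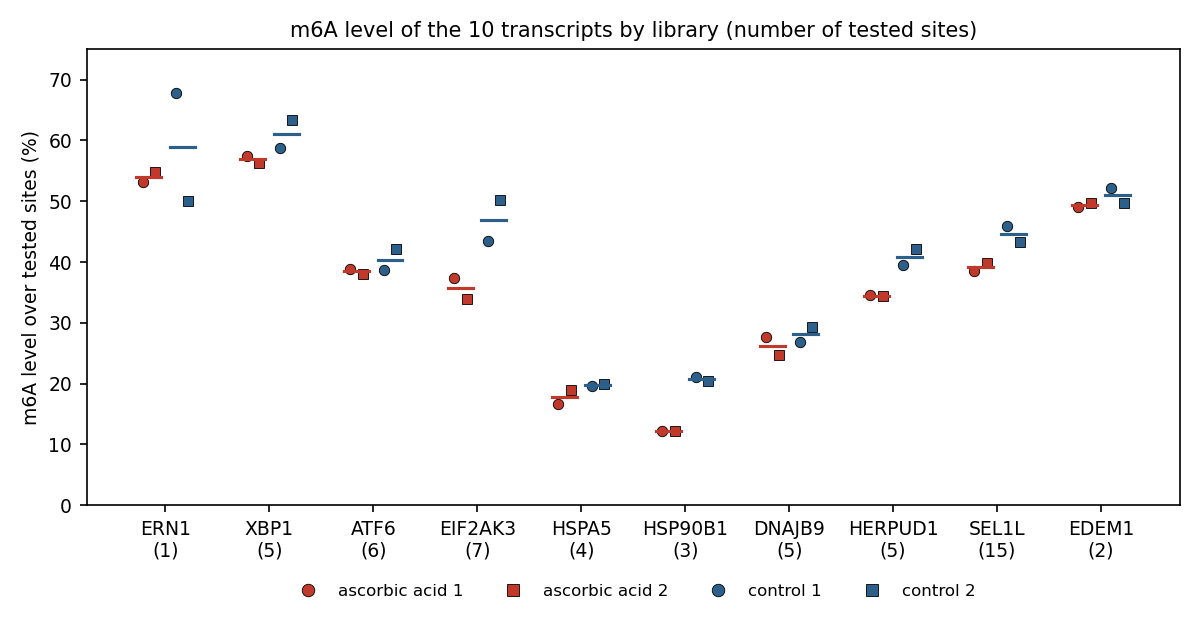
m6A level in percent of A plus G reads (vertical axis) summed over the tested sites of each of the 10 genes, with 1 point per library, the 2 ascorbic acid libraries left of the 2 control libraries and a short line at each mean. HSP90B1 had the widest gap relative to its spread, at 12.3% and 12.2% with ascorbic acid against 21.0% and 20.5% in control, while the points of ATF6, DNAJB9 and ERN1 overlapped.

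At single sites, 9 of the 53 tested positions fell, none rose and 44 did not pass the same edgeR test. At an unadjusted edgeR p under 0.05, 13 were lower and 0 higher. This split was not counted over all sites, where the mean was lower at 82.9%. Among the 53, limma and DESeq2 also called no rise. The count of 9 became 6 without ascorbic acid replicate 1, 5 without ascorbic acid replicate 2, 12 without control replicate 1, 5 without control replicate 2 and 4 with DESeq2. The share that fell was 25.7% of the 78509 sites tested in all genes, and 0.219% rose. In each of those settings, fewer of all sites fell than in the edgeR test of all 4 libraries (with DESeq2 9662, against 20141). The ascorbic acid values were all below the control values at 26 of the 53 sites (55.4% of all sites) and above them at 1 (4.22% of all sites), and the mean was lower at 46 of 53 (82.9% of all sites). The median level over the 53 sites was 28.3% with ascorbic acid and 36.2% in control, and the median change was -4.49 percentage points, against -4.89 over all tested sites. Among the 8 sites with at least 80% in control, 5 fell, against 57.5% of all such sites; of the 24 sites between 30% and 80%, 2 fell, against 26.6%; and of the 21 sites under 30%, 2 fell, against 8.37%. By distance to the annotated 3′ end, 3 of 8 sites within 1000 nt fell (29.7% of all such sites in protein-coding genes), 3 of 20 sites between 1000 and 5000 nt (22.7%), and 3 of 25 sites farther away (31.4%). Distances are along the genome, introns included, since no transcript annotation was used.

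**Figure D2:**
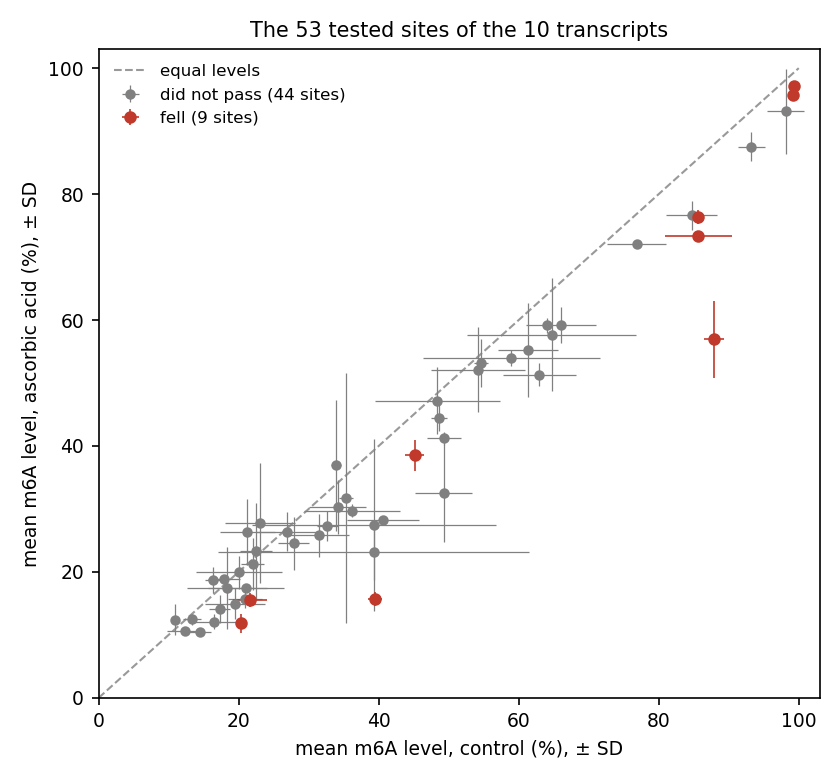
Mean m6A level of each of the 53 tested sites, in percent, with ascorbic acid on the vertical axis and in control on the horizontal axis; red points passed the test, bars are the SD (n = 2 each) and the diagonal marks equal levels. Of the points, 46 lie below the diagonal, and the 2 farthest below it are in EIF2AK3 and HSP90B1.

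Of the sensors, EIF2AK3 had the clearest difference. Its 7 tested sites together stood at 37.4% and 34.0% with ascorbic acid, against 43.5% and 50.2% in control. The means were 35.7 ± 2.43% with ascorbic acid and 46.9 ± 4.76% in control (SD, n = 2 each), a log2 odds ratio of -0.67 (edgeR adjusted p = 0.00785). This call was not kept without ascorbic acid replicate 2 (adjusted p = 0.0726), without control replicate 2 (0.0864) or with DESeq2 (0.0893).

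The site of EIF2AK3 that fell lies on chromosome 2 at position 88575125, 18384 nt before the annotated 3′ end. It read 61.3% and 52.6% with ascorbic acid, against 86.8% and 88.9% in control, at 31 to 38 reads per library. The change of -30.9 percentage points was the largest among the 53 sites, with a log2 odds ratio of -2.44 ± 0.54 (SE; edgeR adjusted p = 0.000473, but 0.0506 with DESeq2). The other 6 sites of the gene together stood at 32.4% with ascorbic acid and 38.6% in control, and none of them passed. At its deepest site, position 88557619, EIF2AK3 had 22.6% and 30.0% with ascorbic acid, against 18.4% and 24.0% in control, and these values overlap (adjusted p = 0.688).

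ERN1, the RNase that splices XBP1 mRNA, was thinly covered and had a single tested site, on chromosome 17 at position 64043949. Its level was 53.1% and 54.8% with ascorbic acid, against 67.9% and 50.0% in control, at 28 to 32 reads, so the ascorbic acid values lie between those of control (edgeR adjusted p = 0.685 for the gene). Without control replicate 1 its log2 odds ratio turned to 0.23. A second ERN1 position, 64044057, was listed in all 4 libraries at 56.5% and 69.2% with ascorbic acid, against 90.5% and 84.2% in control, but missed the read minimum; with no read minimum its adjusted p was 0.037. The other such position, 64044005, had 89.5% and 72.7% with ascorbic acid, against 85.0% and 92.3% in control, which overlap (edgeR adjusted p = 0.458 with no read minimum). The gene sum depended on that minimum: without it, the log2 odds ratio of ERN1 was -0.83 (edgeR adjusted p = 0.0507), which did not pass.

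ATF6 is the sensor that becomes a transcription factor. Its 6 tested sites on chromosome 1 lie between positions 161958491 and 161958863, and together they read 38.9% and 38.1% with ascorbic acid, against 38.7% and 42.1% in control (log2 odds ratio -0.11, edgeR adjusted p = 0.468). The highest of them, position 161958752, had 97.9% and 88.4% with ascorbic acid, against 96.2% and 100% in control (adjusted p = 0.248). The deepest, position 161958863, had 43.0% and 46.0% with ascorbic acid, against 47.8% and 49.5% in control (adjusted p = 0.448). The first of these pairs overlaps and the second does not. No ATF6 site passed, and all 6 had a lower mean, against 82.9% of all tested sites.

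XBP1, the transcription factor made from the mRNA that ERN1 splices, had the highest mean m6A level of the 10 genes in both groups. Its 5 tested sites together stood at 57.5% and 56.3% with ascorbic acid, against 58.7% and 63.3% in control, a log2 odds ratio of -0.25 (edgeR adjusted p = 0.0198). This small difference was not kept without ascorbic acid replicate 1 (adjusted p = 0.0624), ascorbic acid replicate 2 (0.177) or control replicate 2 (0.195), nor with DESeq2 (0.104). With each site given equal weight in place of its reads, the log2 odds ratio of the gene was -1.02.

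All 5 tested XBP1 sites lie on chromosome 22, 697 to 1062 nt before the annotated 3′ end, and 3 of them fell. Position 28795293 had 96.8% and 97.3% with ascorbic acid, against 99.3% and 99.5% in control, at 1108 to 1398 reads per library. In unmethylated reads this is a mean of 2.91% G with ascorbic acid and 0.611% in control, a log2 odds ratio of -2.30 ± 0.34 (edgeR adjusted p = 7.17e-07). Position 28795550 had 95.5% and 95.9% with ascorbic acid, against 99.2% and 99.3% in control, with a mean G share of 4.33% with ascorbic acid and 0.753% in control (log2 odds ratio -2.49 ± 0.50, adjusted p = 0.000121). Both sites are close to full methylation in both groups, and the groups do not overlap.

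These near-complete XBP1 sites depended on how incomplete conversion was handled. With the authors' unconverted share subtracted from the A reads, the log2 odds ratio was -0.41 at position 28795293 (adjusted p = 0.0781) and -0.68 at position 28795550 (adjusted p = 0.0665). With that share taken from the unmethylated reads instead, they were -2.37 and -2.57, and both passed. In each library the share given for XBP1, 4.41% to 5.86%, was larger than the G share at either site, at most 4.52%. The subtraction therefore took off more A reads than there were G reads at these 2 sites. The third site, position 28795257, had 40.2% and 36.8% with ascorbic acid, against 44.2% and 46.1% in control, at 1228 to 1513 reads (log2 odds ratio -0.40 ± 0.11, adjusted p = 0.0038). Its call was not kept without ascorbic acid replicate 2 (0.218) or control replicate 2 (0.0505), or with DESeq2 (0.108). The remaining 2 sites of XBP1 together read 15.4% with ascorbic acid and 17.0% in control.

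Among the chaperones, HSP90B1 (GRP94), the HSP90 family member of the ER lumen, had the largest difference. Its 3 tested sites together stood at 12.3% and 12.2% with ascorbic acid, against 21.0% and 20.5% in control. The means were 12.2 ± 0.07% with ascorbic acid and 20.7 ± 0.41% in control (SD, n = 2 each), a log2 odds ratio of -0.91 (edgeR adjusted p = 3.5e-07). The gene passed in each alternative tried, and without its deepest site the log2 odds ratio was -1.66.

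Most of the HSP90B1 difference over its tested sites lay at a single position. Position 103934079 on chromosome 12, 3669 nt after the annotated start, had 15% and 16.6% with ascorbic acid, against 38.8% and 40.1% in control, at 456 to 598 reads. It fell by 23.7 percentage points, with a log2 odds ratio of -1.79 ± 0.16 (edgeR adjusted p = 1.26e-12), and passed in each alternative tried. The other 2 tested sites together stood at 10.6% with ascorbic acid and 12.5% in control. The deepest of the 2, position 103947787 near the annotated 3′ end, had 11.0% and 10.1% with ascorbic acid, against 10.5% and 14.1% in control, and these overlap (adjusted p = 0.199, but 0.0271 without control replicate 1).

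A position 24 nt from the one that fell, 103934055, was listed in control alone, at 16.0% and 20.8% of 514 and 366 reads. Position 103947734, 53 nt from 103947787, was not listed in ascorbic acid replicate 1 and so went untested. It had 10.4% of 2460 reads in ascorbic acid replicate 2, against 15.5% of 1862 reads and 14.5% of 2814 reads in control. The third tested HSP90B1 site, position 103930410, is the annotated first base of the gene, and its surroundings are shown because the m6A read-out at a transcript's first base can also come from the cap-adjacent N6,2′-O-dimethyladenosine, which GLORI does not tell from m6A. It had 12.9% and 11.3% with ascorbic acid, against 18.8% and 14.1% in control, at 62 to 85 reads (adjusted p = 0.508). Listed positions within a few bases of the annotated start were also found in HERPUD1 (14.3% of 56 reads in ascorbic acid replicate 2 alone) and in ATF6 (10.6% of 66 and 11.3% of 53 reads in control replicate 1 alone). The capital marks the listed adenosine in 29 bases of the plus strand (RefSeq, GRCh38.p14).
HSP90B1, chr12:103930396-103930424: cctgcttgcggtgtAgtgggcggaccgcg
HERPUD1, chr16:56932133-56932161: ggggcgcgcgccccAgagacgtgaactgt
ATF6, chr1:161766308-161766336: cgccgccgtcccagAtattaatcacggag
ATF6, chr1:161766314-161766342: cgtcccagatattaAtcacggagttccag

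HSPA5 (BiP), the HSP70 chaperone that also binds the sensors, did not pass. Its 4 tested sites on chromosome 9 together read 16.7% and 19.0% with ascorbic acid, against 19.5% and 19.9% in control (log2 odds ratio -0.18, edgeR adjusted p = 0.112). The groups do not overlap but differ by about the spread within ascorbic acid. Its highest site, position 125236470, had 72.4% and 71.5% with ascorbic acid, against 79.8% and 73.9% in control (adjusted p = 0.26). Its deepest site, position 125241157, with 1565 to 1969 reads, had 11.9% and 13.1% with ascorbic acid, against 12.5% and 14.2% in control (adjusted p = 0.546). HSPA5 position 125237133, with the smallest p of the gene, had 12.5% and 15.7% with ascorbic acid, against 16.2% and 18.4% in control (adjusted p = 0.134).

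DNAJB9 (ERdj4), a J-domain co-chaperone of HSPA5, had values on both sides. Its 5 tested sites on chromosome 7 together read 27.6% and 24.7% with ascorbic acid, against 26.8% and 29.4% in control (log2 odds ratio -0.16, edgeR adjusted p = 0.379). Position 108573429 had 28.2% and 28.4% with ascorbic acid, against 37.0% and 44.2% in control, and missed the threshold (adjusted p = 0.0548, but 0.0468 with a minimum of 50 reads and 0.0496 without control replicate 1). Only 41 nt away, position 108573388 had 34.4% and 21.0% with ascorbic acid, against 19.5% and 26.6% in control, which overlap. Its highest tested site, position 108573229, had 57.1% and 61.2% with ascorbic acid, against 62.5% and 69.6% in control. The 1 site of the 53 with both ascorbic acid libraries above control was DNAJB9 position 108574157, named after its values were seen, at 17.3% and 20.1% with ascorbic acid, against 17.0% and 15.5% in control (adjusted p = 0.639).

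**Figure D3:**
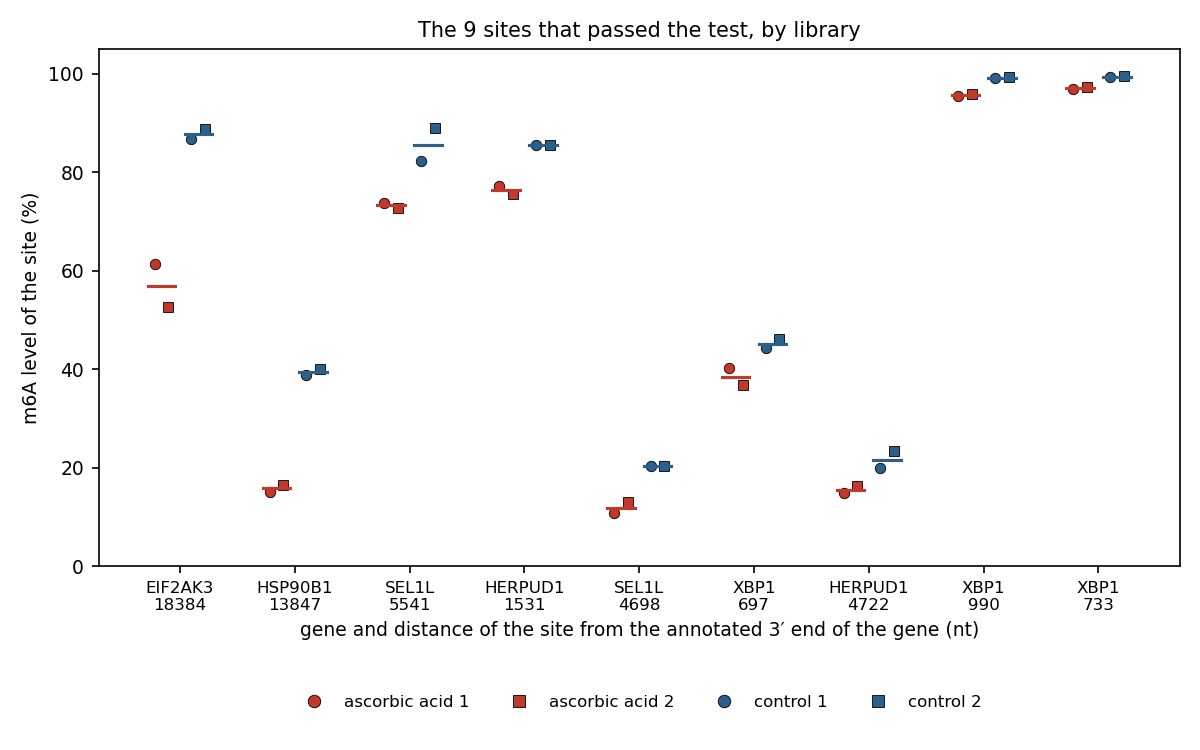
m6A level in percent (vertical axis) of the 9 sites that fell, with 1 point per library and the ascorbic acid libraries left of the control libraries. The groups do not overlap at any of the 9, but these sites were picked by a test on the same values, so this adds no support. The gap is widest at the EIF2AK3 and HSP90B1 sites and narrowest at the XBP1 sites near 99%.

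Of the ERAD factors, HERPUD1, a membrane protein of the degradation complex, fell. Its 5 tested sites on chromosome 16 together read 34.5% and 34.4% with ascorbic acid, against 39.4% and 42.1% in control. The means were 34.4 ± 0.08% with ascorbic acid and 40.8 ± 1.88% in control (SD, n = 2 each), a log2 odds ratio of -0.39 (edgeR adjusted p = 0.00197), and the gene passed in each alternative tried. Position 56943333 had 77.2% and 75.5% with ascorbic acid, against 85.6% and 85.6% in control, at 277 to 364 reads (log2 odds ratio -0.88 ± 0.21, adjusted p = 0.00105), and also passed in each alternative. The nearby position 56943240, the deepest of the gene, had 28.9% and 25.6% with ascorbic acid, against 31.6% and 33.7% in control, and did not pass (adjusted p = 0.0631).

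HERPUD1 position 56940142, 3098 nt from its nearest listed neighbour, had 14.7% and 16.3% with ascorbic acid, against 19.9% and 23.3% in control (log2 odds ratio -0.60 ± 0.20, edgeR adjusted p = 0.0212). The groups do not overlap, but this call was not kept without ascorbic acid replicate 1 (0.186), ascorbic acid replicate 2 (0.0858) or control replicate 2 (0.267), or with DESeq2 (0.235). The 3 HERPUD1 sites that did not pass stood together at 26.1% with ascorbic acid and 31.0% in control.

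SEL1L, the adaptor that joins substrates to the ubiquitin ligase SYVN1, carried the most tested sites, 15, all on chromosome 14 and 4406 to 5603 nt before the annotated 3′ end. Together they read 38.5% and 39.9% with ascorbic acid, against 45.9% and 43.2% in control, means of 39.2 ± 0.95% with ascorbic acid and 44.5 ± 1.87% in control (SD, n = 2 each). The log2 odds ratio was -0.31 (edgeR adjusted p = 0.00883); without ascorbic acid replicate 1 the adjusted p was 0.107, and with DESeq2 it was 0.0806. The mean was lower at 14 of the 15 sites, against 82.9% of all tested sites. At 8 of the 15 the groups did not overlap, with ascorbic acid lower, against 55.4% of all tested sites. Sites of 1 transcript share its reads where they lie close, so they are not independent.

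At single SEL1L sites, position 81477088 fell, at 73.8% and 72.7% with ascorbic acid, against 82.2% and 89.0% in control (log2 odds ratio -1.10 ± 0.34, edgeR adjusted p = 0.0124). This was not kept without ascorbic acid replicate 1 (0.0665), ascorbic acid replicate 2 (0.118) or control replicate 2 (0.21), or with DESeq2 (0.18). Position 81476245 fell too, at 10.8% and 12.9% with ascorbic acid, against 20.3% and 20.3% in control (log2 odds ratio -0.92 ± 0.34, adjusted p = 0.0370), a call lost on leaving out any 1 library (adjusted p 0.0938 to 0.242) and with DESeq2 (0.286). Only 4 nt from it, position 81476249 had 50.0% and 60.5% with ascorbic acid, against 64.3% and 58.3% in control, which overlap. The highest site, position 81476795, had 85.9% and 89.2% with ascorbic acid, against 94.6% and 91.9% in control (adjusted p = 0.21). The deepest, position 81476699, had 30.4% and 28.9% with ascorbic acid, against 41.0% and 31.4% in control (adjusted p = 0.228).

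**Figure D4:**
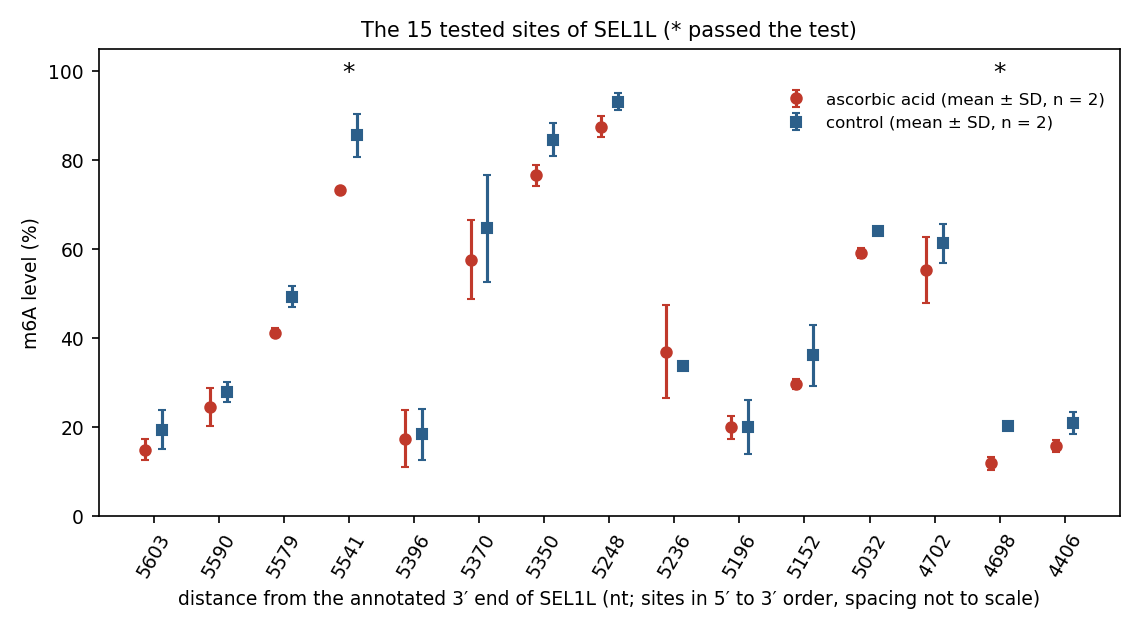
m6A level in percent (vertical axis) of the 15 tested SEL1L sites in their order along the transcript (horizontal axis), as the mean and SD of 2 libraries for ascorbic acid and for control; stars mark the 2 sites that passed. Levels of neighbouring sites range from near 10% to over 90%. The mean is lower with ascorbic acid at 14 of the 15 sites, against 82.9% of all tested sites.

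EDEM1, which takes up mannose-trimmed glycoproteins for ERAD, showed no difference beyond its spread. Its 2 tested sites on chromosome 3 together read 49.1% and 49.6% with ascorbic acid, against 52.2% and 49.8% in control (log2 odds ratio -0.09 ± 0.19, edgeR adjusted p = 0.701). Position 5216004 had 47.3% and 56.9% with ascorbic acid, against 49.5% and 58.9% in control. Position 5216206 had 50.9% and 43.4% with ascorbic acid, against 54.7% and 42.1% in control. At both, the libraries of a group differed by more than the group means did.

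Sites of 1 transcript did not all move alike on the odds scale. Each site was tested against the rest of its gene, which asks whether its odds ratio differs from that of the other sites (edgeR interaction, adjusted over 69381 sites). Of the 52 sites tested in these genes, 5 differed, against 14.5% of all sites. At 4 the odds fell more than in the rest of their gene (10.8% of all sites), and 1 differed in the other direction (3.68% of all sites). The 4 were HSP90B1 103934079 (difference in log2 odds ratio -1.49, adjusted p = 2.16e-07), XBP1 28795293 (-2.03, adjusted p = 1.98e-05), XBP1 28795550 (-2.23, adjusted p = 0.00488) and EIF2AK3 88575125 (-2.06, adjusted p = 0.0125). The last was not kept without ascorbic acid replicate 2 (0.12) or control replicate 1 (0.0915), and XBP1 28795550 not without control replicate 1 (0.0564).

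The site on the other side was HSP90B1 103947787, with a difference of 1.38 (edgeR adjusted p = 1.38e-06), whose own level did not pass; in a gene of 3 sites this test sets it mainly against 103934079. For the sites of SEL1L and HERPUD1 that fell, the difference from the rest of the gene did not pass (edgeR adjusted p 0.134 to 0.583), nor did it for XBP1 28795257 (0.62). In percentage points, the largest change of these 3 XBP1 sites was instead at 28795257, at -6.67, against -2.30 at 28795293 and -3.58 at 28795550. The comparison with the rest of the gene was not repeated with the conversion corrections.

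The coverage of the transcripts, the authors' value per gene scaled here between libraries, was tested with limma on the log2 scale. None of the 10 genes passed at an adjusted p under 0.05, against 0.295% of all 11848 genes (0.253% rose and 0.0422% fell). Of the 10, 0 had an unadjusted p under 0.05. The log2 change lay between -0.15 ± 0.07 (SE, ATF6, limma adjusted p = 0.375) and 0.10 ± 0.07 (EDEM1, adjusted p = 0.554). HSP90B1, which had the largest fall in m6A by log2 odds ratio, had a scaled coverage of 602 and 641 with ascorbic acid, against 635 and 600 in control, which overlap (log2 change 0.01, adjusted p = 0.964). HSPA5 had 290 and 292 with ascorbic acid, against 327 and 305 in control (log2 change -0.12, adjusted p = 0.424). XBP1 had 405 and 391 with ascorbic acid, against 379 and 401 in control, and EIF2AK3, the gene with the lowest coverage, 30.8 and 29.7 with ascorbic acid, against 29.7 and 28.9 in control. In such bulk samples, fewer cells of a type and less RNA per cell cannot be told apart.

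**Figure D5:**
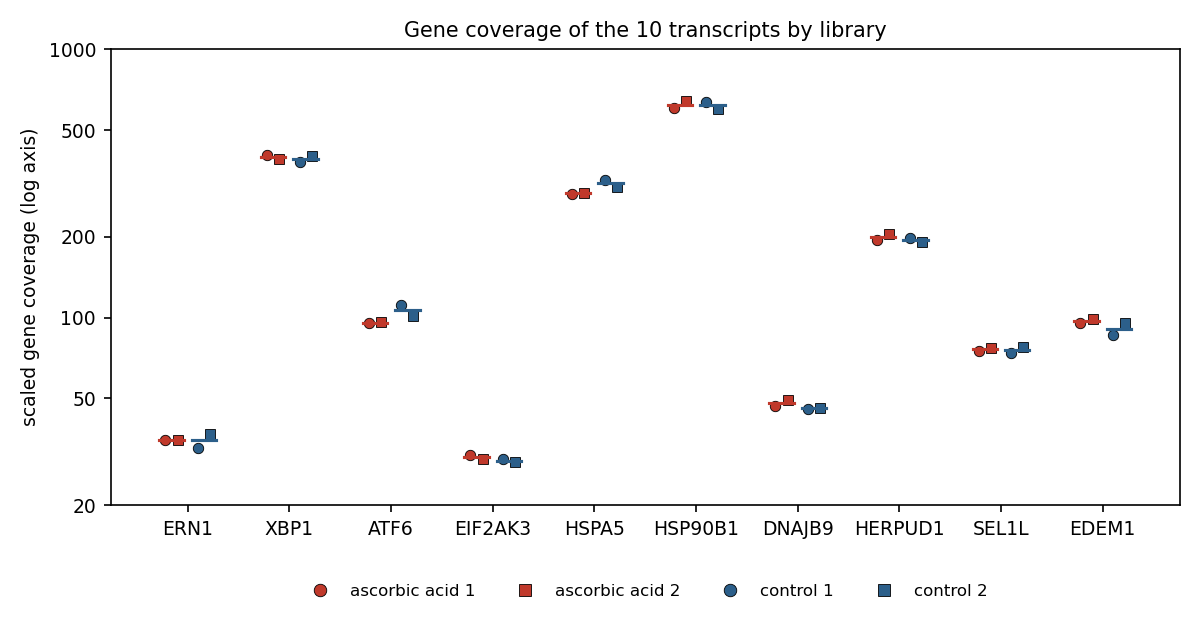
Scaled gene coverage (vertical axis, log scale) of the 10 genes, with 1 point per library and the ascorbic acid libraries left of the control libraries. The genes span about 30 in EIF2AK3 to over 600 in HSP90B1, and the groups lie within 0.15 of each other on the log2 scale in every gene.

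Other genes of the pathway were read from 3 lists of 58 genes, of which 51 had a tested site. With sites summed per gene, 35 of the 51 fell, none rose by edgeR and 16 did not pass, against 56.7% of all genes that fell. That share depends on the number of sites, and was 68.2% among all genes with at least 3 tested sites. The mean was lower in 46, against 92.2% of all genes; the median log2 odds ratio was -0.36, against -0.39 over all genes. Of the ERAD genes 12 of 15 fell, and 14 of 15 had a lower mean. OS9, a lectin that hands glycoproteins to SEL1L, averaged 29.7 ± 0.11% with ascorbic acid and 45.5 ± 1.70% in control (SD, n = 2 each), and DERL2, a derlin of the same complex, averaged 38.6 ± 1.01% with ascorbic acid and 55.7 ± 4.80% in control. SYVN1, the ligase that SEL1L serves, averaged 38.6% with ascorbic acid and 49.1% in control.

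Of the ER chaperones and folding enzymes, 14 of 18 fell, against 56.7% of all genes and 68.2% of those with at least 3 tested sites. The mean was lower in 17 of 18, against 92.2% of all genes. P4HB, a protein disulfide isomerase, averaged 36.0% with ascorbic acid and 46.2% in control, and PPIB, a prolyl isomerase, 45.3% with ascorbic acid and 54.9% in control. CANX, the lectin chaperone calnexin, averaged 20.6% with ascorbic acid and 26.7% in control. Of the sensors, processing factors and outputs, 9 of 18 fell, a share below that of all genes, and 15 of 18 had a lower mean. Those that fell included MBTPS1, the protease that first cuts ATF6 (31.6% with ascorbic acid, 43.1% in control), RTCB, the ligase that joins the exons of spliced XBP1 (41.8% with ascorbic acid, 48.7% in control), and ATF6B, the paralogue of ATF6, on a single site (21.8 ± 0.20% with ascorbic acid, 41.1 ± 9.37% in control; SD, n = 2 each). No gene of the 3 lists passed for coverage.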

How the data were processed

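GLORI libraries of HEK293T messenger RNA were deposited as 1 list of sites per library. Trimmomatic 0.39, STAR and the build hg38 are named in the submitters' processing notes, which as used here name no site caller. Read counts of A and of A plus G per site are the authors' counts, per the file headers. The m6A level is the authors' fraction A over A plus G, which matched the counts within 5e-06; the conversion rate is a second deposited fraction. Gene coverage is a signal deposited by the authors, whose unit no source defines. The authors' p-value per site, per the file headers, was not used beyond its range. Lists hold at least 15 A plus G reads, 5 A reads and a level of 10%, so falls to under 10% are not seen.

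With edgeR 4.0.16 (quasi-likelihood, 1 term per library, treatment acting on the odds of A), tests were run on sites found in every library at 20 or more reads, on gene sums and on each site against the rest of its gene. Coverage was scaled by median ratios and tested with limma 3.58.1. Adjusted p-values are Benjamini-Hochberg over all features, threshold 0.05, two-sided. Scripts were tested on simulated data. Alternatives included DESeq2 1.42.0, other read minimums, conversion corrections and leaving out each library. Fitted intervals cover counting error and the spread between 2 libraries per group. The members, the pathway and marker lists and the tests were chosen with earlier results of these data known; part of the marker list is not reported here. Sites given in every library are, per gene, the one with the smallest p, the deepest, the highest in control and each that passed. Sequences are RefSeq's.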

Additional observations from a re-analysis of the deposited data

How the results depend on the processing

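The 9 sites that fell became 4 with DESeq2 and between 5 and 12 on leaving out 1 library; the other settings gave 7 to 10, with 7 when the unconverted share was subtracted. The 5 genes that fell became 2 with DESeq2 (HERPUD1 and HSP90B1) and between 3 and 5 on leaving out 1 library. Sites that differed from the rest of their gene numbered 4 to 5, and coverage gave no call among the 10 genes under any setting. Replicate numbers did not pair the libraries (correlation of deviations -0.00535 over 78509 sites); with the replicate number as a block, 10 sites and 5 genes fell, 5 sites differed from the rest of their gene and no coverage passed. On leaving out 1 library, the sign turned at 20 of the 53 tested sites, and in the other settings at 1, a SEL1L site with a log2 odds ratio near 0; none of these sites had passed. Among the sites described in every library and the gene sums, the log2 odds ratios concerned, as lowest and highest of the leave-outs, were those of DNAJB9 108573388 (-0.184 to 0.799), EDEM1 5216004 (-0.41 to 0.172), EDEM1 5216206 (-0.469 to 0.265), ERN1 64043949 (-0.841 to 0.228), the ERN1 gene (-0.841 to 0.228), HSP90B1 103947787 (-0.477 to 0.0104) and HSPA5 125241157 (-0.215 to 0.0045). The log2 coverage changes concerned were those of ERN1 (-0.0802 to 0.0949), HERPUD1 (-0.00866 to 0.0663), HSP90B1 (-0.035 to 0.0532), SEL1L (-0.0254 to 0.0545) and XBP1 (-0.0118 to 0.0758). The cause of these shifts was not tested. There were 2 libraries per group and as few as 20 reads per site. Differences of a few percentage points at thinly covered genes such as ERN1 and EIF2AK3 may therefore have been missed. No limit of detection was computed.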

Other observations

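Some deeply read sites of these genes were absent from the list of a single library and so went untested. XBP1 position 28795202 had 96.6% of 526 reads and 96.3% of 598 reads with ascorbic acid, against 99.4% of 503 reads in control replicate 1, and was not listed in control replicate 2. XBP1 position 28795218 had 63.4% and 62.5% with ascorbic acid, against 62.4% in control replicate 1, and was likewise not listed in control replicate 2. DNAJB9 position 108573347 had 71.0% and 69.2% with ascorbic acid, against 79.8% in control replicate 1 alone, and its neighbour 108573337 was listed with ascorbic acid alone, at 82.9% of 76 reads and 82.6% of 86 reads. In these genes 4 sites had at least 80% in each of exactly 3 libraries, 2 of them missing from control replicate 2. Among all genes 1543 sites did, missing from ascorbic acid replicates 1 and 2 in 305 and 229 cases, against 256 and 753 cases for control replicates 1 and 2. Such an absence at a high level was therefore counted neither as a loss nor as a gain of m6A.

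Of the 149 listed positions, 52 were listed in 1 library only (34.9%, against 35.1% of all positions), at a median level of 13%. Of these, 27 came from an ascorbic acid library and 25 from a control library; 3 positions were listed in both ascorbic acid libraries alone and 5 in both control libraries alone.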
